A study of Mus musculus with 6 samples.

Results

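The genes described here are 40 germline and meiosis genes, a list of genes that work in the testis and ovary and of which many are known to be held silent in other cells through DNA methylation of their promoters. They were picked by name, with earlier results of these data known, and all 40 were found among the 54715 genes of the count table. Of the 40, 35 reached at least 10 counts in at least 3 of the 6 libraries, 33 reached 10 counts in all 6, and the remaining 5 (*Asz1*, *Dpep3*, *Spo11*, *Tdrd6* and *Tuba3b*) stayed under 10 counts in every library. DNA methylation was not measured in these samples, so the word silenced describes what is known of the genes elsewhere, and the data give only their transcript levels.

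Germ cells use proteins that most other cells make little of. Meiotic cohesin and axis proteins hold the sister chromatids, the synaptonemal complex joins the paired chromosomes, and the PIWI proteins with their small RNAs and Tudor domain partners silence transposons. Before germ cells form, many of these genes carry a CpG-rich promoter that is kept off by DNA methylation together with a Polycomb complex called PRC1.6, in which MGA and MAX bind the E-box CACGTG and E2F6 binds the E2F site TCCCGC. Mouse pluripotent cells grown in culture are known to transcribe part of this set at low levels.

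RNA-seq libraries were made from WT ASCs and from *Bdh2*-knockout ASCs, with 3 replicates of each. ASCs are mouse embryonic stem cells kept in an advanced pluripotent state with activin A, BMP4, the GSK3 inhibitor CHIR99021 and leukemia inhibitory factor, and the line of both genotypes came from a 129/sv female crossed with a GOF/GFP male. The *Bdh2*-/- cells were made with CRISPR/Cas9 and carry a deletion on both alleles of *Bdh2*, which encodes a short-chain dehydrogenase of siderophore synthesis. They descend from a picked colony, so an effect of the clone and an effect of the genotype cannot be told apart. The sources do not say whether the replicates were separate cultures, and p-values then measure only the spread between these libraries, which may be technical.

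Counts on genes summed to 18927748 in the shallowest library and 28333541 in the deepest. *Bdh2* itself was counted 203, 193 and 209 times in the WT replicates and 164, 136 and 129 times in the knockout replicates, which is a log2 fold change of -0.79 with a standard error of 0.12 (edgeR's quasi-likelihood test, Benjamini-Hochberg adjusted p = 2.46e-04). All 8 pluripotency markers were present in every library, with *Pou5f1* at 1468.9 CPM in WT ASCs and 1654.8 CPM in *Bdh2*-knockout ASCs (CPM scales each gene's count to a fixed library total, here after TMM normalization). All 10 markers of primitive endoderm were called higher in *Bdh2*-knockout ASCs (*Foxa2* passed the count filter through the knockout libraries, with 1 WT library over it), and their summed level was 240.0 to 263 CPM in WT libraries and 602 to 662 CPM in knockout libraries. The summed level of 15 adult hepatocyte transcripts was 578, 354 and 55.8 CPM in WT replicates 1 to 3 and 46.0, 168 and 31.8 CPM in knockout replicates 1 to 3. These sums overlap between the genotypes, yet all 15 transcripts had negative log2 fold changes, 12 were called lower in *Bdh2*-knockout ASCs and the median log2 fold change was -2.20 (edgeR). Of the 12, *Cyp2e1*, *Serpina1a* and *Tat* were over the count filter in only 1 knockout library each. The count called lower was 0 with DESeq2 or limma-voom, 0 with edgeR when WT replicate 1, knockout replicate 1 or knockout replicate 3 was left out and 3 without WT replicate 2 (at an unadjusted p under 0.05, 14 with edgeR on all libraries, 3 with DESeq2, 4 with limma-voom and 1, 9 and 10 without those 3 libraries). The part of these transcripts in the results below was not tested beyond the fit that carries the hepatocyte transcripts as a covariate.

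Of the 40 genes, 35 passed the count filter and were tested with edgeR's quasi-likelihood test. At an adjusted p under 0.05, 10 rose and 6 fell in *Bdh2*-knockout ASCs, and 19 were not called. These 16 called genes are 45.7% of the 35, where 41.7% of all 16758 genes tested were called, 21% as higher and 20.8% as lower. The genes that rose were *Slc25a31*, *Tex19.1*, *Syce1*, *Tdrd1*, *Mael*, *Piwil2*, *Ddx4*, *Tex15*, *Sycp3* and *Dmrt1*, and those that fell were *Fkbp6*, *Tex14*, *Hormad2*, *Syce2*, *Stag3* and *Rec8*. The median log2 fold change was 0.20 over the 35 genes and -0.01 over all genes tested. Of the 16, *Slc25a31*, *Tex19.1* and *Syce1* changed by 2-fold or more, as did 886 of the 6996 genes called among all genes tested. With library totals in place of TMM, 9 of the 40 genes were higher and 7 lower, while the split over all genes moved from 3518 higher and 3478 lower to 2731 higher and 4451 lower. Because whole cultures were sequenced, fewer cells that hold a transcript and less of it per cell cannot be told apart.

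**Figure D1:**
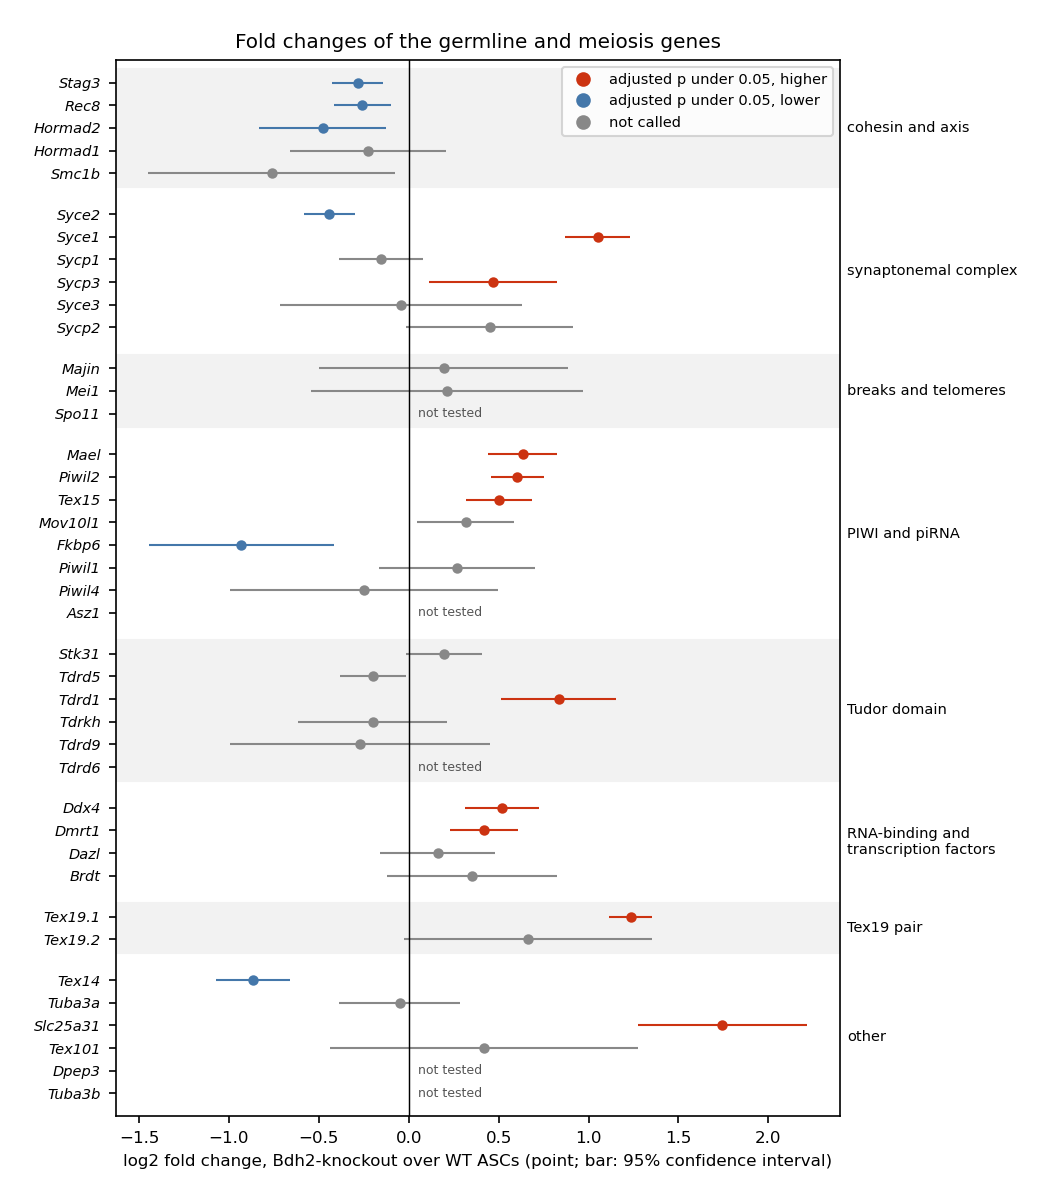
Log2 fold change of each of the 40 genes, *Bdh2*-knockout over WT ASCs, by role of the protein (point, edgeR estimate; bar, 95% confidence interval; n = 3 libraries per genotype). Red genes rose and blue genes fell at an adjusted p under 0.05, and 5 genes did not pass the count filter. The 5 cohesin and axis genes lie left of 0, while the largest positive value is that of *Slc25a31* at 1.74.

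The values of both genotypes did not overlap for 18 of the 35 tested genes, 12 with all knockout replicates above all WT replicates and 6 with all below. Over all genes tested the share without overlap was 52.4%. The 18 are the 16 called genes with *Mov10l1* and *Sycp2*. For a single gene, 3 against 3 replicates give a smallest p of 0.1 in a two-sided exact permutation test, which each of these genes reached.

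Levels were compared between genes per length, as FPKM (counts scaled to the listed gene length and to the total of the library). The median over the 40 genes was 1.29 FPKM in WT ASCs and 1.25 FPKM in *Bdh2*-knockout ASCs, and that of all tested genes was 3.96 and 3.63 FPKM. In either genotype 22 of the 40 genes were at 1 FPKM or more and 3 were at 10 FPKM or more. *Syce2* stood highest in WT ASCs at 35.2 ± 3.16 FPKM (SD, n = 3), followed by *Tex19.1* at 27.0 ± 0.818 FPKM and *Stag3* at 11.1 ± 0.906 FPKM. In *Bdh2*-knockout ASCs *Tex19.1* came first at 61.1 ± 2.98 FPKM, before *Syce2* at 24.9 ± 1.09 FPKM and *Syce1* at 16.2 FPKM. *Syce2* and *Tex19.1* thus stood first and second in WT ASCs and in the reverse order in *Bdh2*-knockout ASCs.

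Summed over the 40 genes, the level was 147, 157 and 147 FPKM in WT replicates 1 to 3 and 187, 183 and 189 FPKM in knockout replicates 1 to 3. *Tex19.1* alone made up 18.0 ± 1.19% of the sum in WT ASCs and 32.9 ± 2.06% in *Bdh2*-knockout ASCs. Without it the sum was 124 ± 6.56 FPKM in WT ASCs and 125 ± 5.61 FPKM in *Bdh2*-knockout ASCs (SD, n = 3), values that overlap. The larger sum in *Bdh2*-knockout ASCs was therefore carried by *Tex19.1*.

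**Figure D2:**
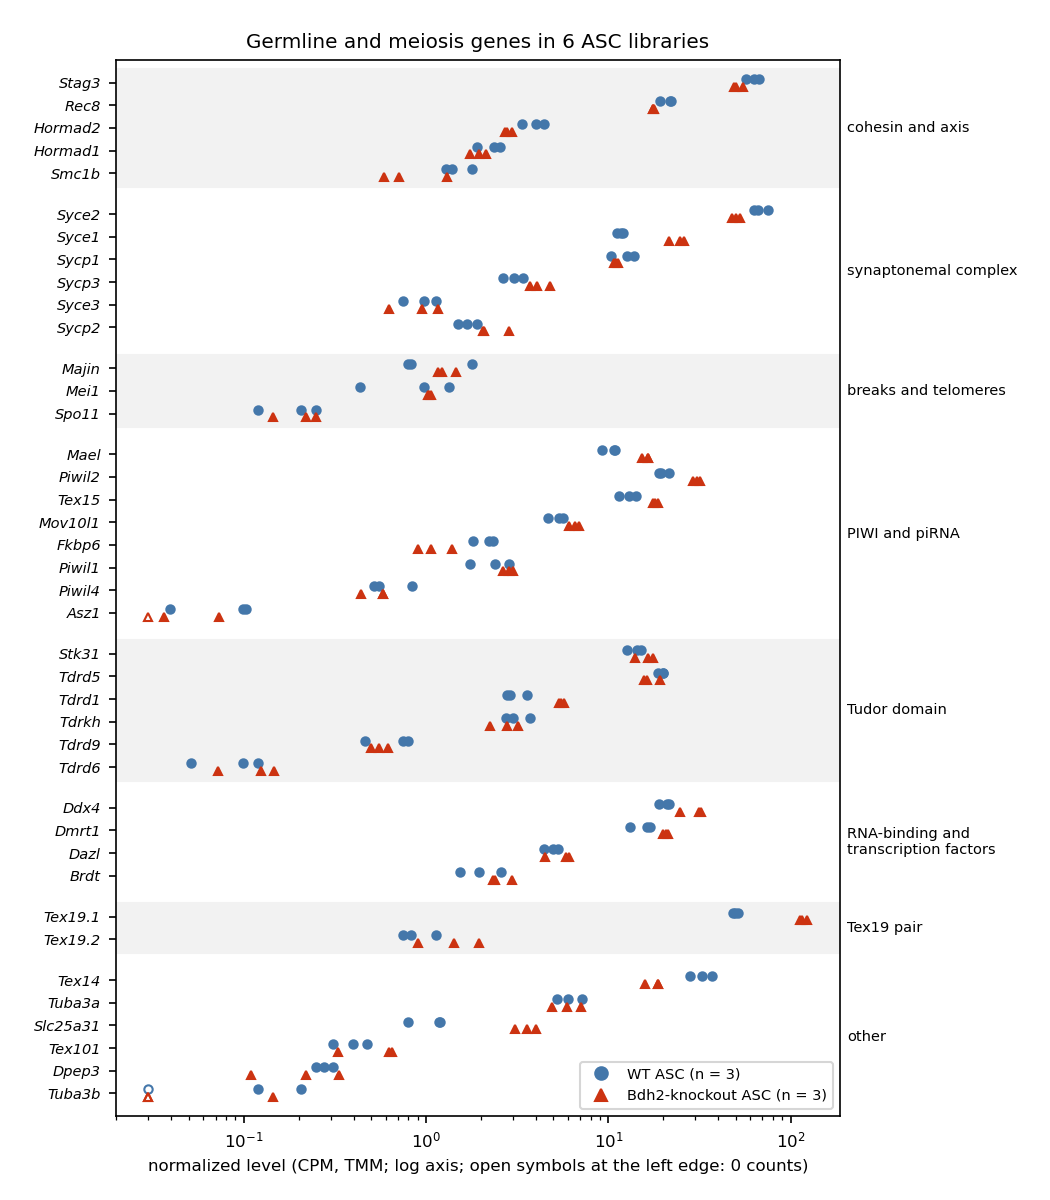
Normalized level of the 40 genes in each of the 6 libraries (CPM, log axis; circles, WT ASCs; triangles, *Bdh2*-knockout ASCs; open symbols at the left edge, 0 counts). The genes span from under 0.2 CPM (*Asz1*, *Tdrd6*) to between 47.7 and 123 CPM (*Syce2*, *Tex19.1*), and for most genes the genotypes lie close together or overlap.

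RefSeq promoters of GRCm38.p6, taken from 250 bases before to 50 bases after the start, were matched for 34 of the 40 genes (not *Piwil2*, *Tdrd6*, *Majin*, *Dmrt1*, *Spo11* and *Tex15*). For 29 of the 34 the RefSeq start lay within 250 bases of the 5′ end in the count table. It lay 269 bases away for *Stag3*, 316 for *Tdrd5*, 4625 for *Tex101*, 12480 for *Mei1* and 33722 for *Piwil1*. Over the 34 promoters the median number of CpG dinucleotides was 19, against 7 over all 32851 RefSeq starts, and the median ratio of observed to expected CpG was 0.702 against 0.384. The E-box CACGTG, which reads the same on both strands, was in 14 of the 34 promoters (41.2%) and in 7.15% of all promoters. The E2F site TCCCGC, on either strand (GCGGGA on the other), was in 15 of the 34 (44.1%) and in 20% of all promoters. At least 1 of both motifs was in 22 of the 34 (64.7%, against 25.1%). Among promoters with at least 10 CpG, the E-box was in 14 of 31 (45.2%, against 10.9%) and the E2F site in 15 of 31 (48.4%, against 40.3%).

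Up to 150 bases before the start are shown for 4 genes that rose and 2 that fell, as examples of promoters with both motifs, with the E-box alone or with the E2F site alone. Capitals mark the E-box and the E2F site, and each stretch ends just before the transcript, so that the E2F site of *Slc25a31*, 20 bases after the start, lies outside it.
Slc25a31 (chr3:40708705-40708854, plus strand): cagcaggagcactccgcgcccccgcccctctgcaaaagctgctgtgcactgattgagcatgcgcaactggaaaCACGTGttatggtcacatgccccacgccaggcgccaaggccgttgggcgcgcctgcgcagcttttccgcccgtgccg
Tex19.1 (chr11:121145993-121146142, plus strand): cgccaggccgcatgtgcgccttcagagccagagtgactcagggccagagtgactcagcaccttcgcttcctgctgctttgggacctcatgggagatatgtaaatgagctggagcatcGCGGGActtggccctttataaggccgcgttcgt
Tdrd1 (chr19:56826059-56826208, plus strand): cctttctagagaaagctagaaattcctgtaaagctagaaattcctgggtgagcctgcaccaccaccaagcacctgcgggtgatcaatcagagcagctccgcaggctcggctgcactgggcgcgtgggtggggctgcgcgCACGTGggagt
Sycp3 (chr10:88459419-88459568, plus strand): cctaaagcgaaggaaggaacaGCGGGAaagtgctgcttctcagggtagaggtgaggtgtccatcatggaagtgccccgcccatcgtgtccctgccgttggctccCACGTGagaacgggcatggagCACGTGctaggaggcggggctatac
Syce2 (chr8:84871961-84872110, plus strand): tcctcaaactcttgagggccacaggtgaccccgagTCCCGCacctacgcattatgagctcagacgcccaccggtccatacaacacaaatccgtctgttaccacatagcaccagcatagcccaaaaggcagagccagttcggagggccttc
Fkbp6 (chr5:135350045-135350194, minus strand): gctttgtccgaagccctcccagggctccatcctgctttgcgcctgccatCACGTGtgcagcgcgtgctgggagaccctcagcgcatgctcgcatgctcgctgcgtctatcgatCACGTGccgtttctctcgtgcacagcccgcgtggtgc

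Of the 10 genes that rose, 7 had a promoter entry, and 5 of these held the E-box, 5 the E2F site and 6 at least 1 of them. All 6 genes that fell had an entry, and 2 of these held the E-box, 4 the E2F site and 5 at least 1 of them. *Syce1* among the higher genes and *Hormad2* among the lower genes held neither in this window. Of the 18 uncalled genes with an entry, 7 held the E-box, 5 the E2F site and 10 at least 1 of them. Promoters with a pair of E-boxes were those of *Sycp3*, *Hormad1*, *Tdrd9*, *Piwil1* (start 33722 bases from the listed 5′ end) and *Fkbp6*. Of these genes *Sycp3* rose, *Fkbp6* fell and the other 3 were not called. These matches describe the letters only, and binding was not measured.

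**Figure D3:**
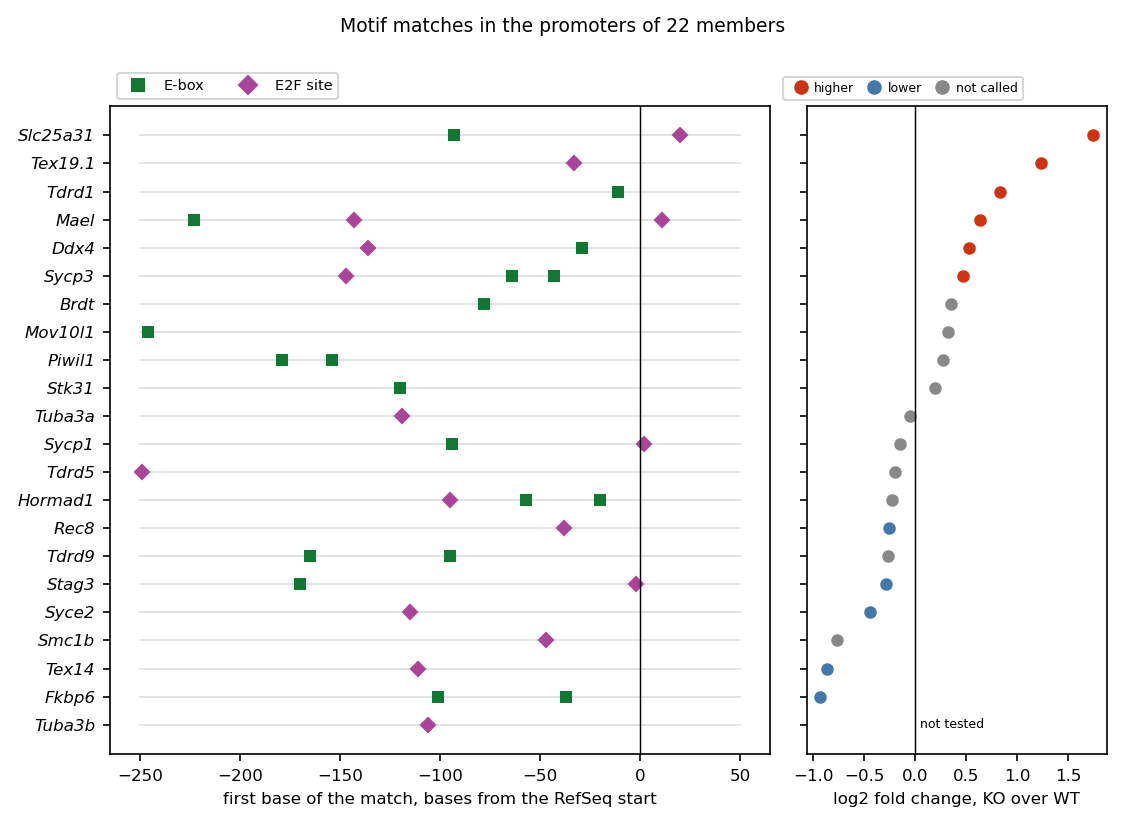
Position of E-box (squares) and E2F site (diamonds) matches from 250 bases before to 50 bases after the RefSeq start in the 22 promoters that hold at least 1 (left; distance in bases), beside the log2 fold change of the gene (right; red, rose; blue, fell; grey, not called). Genes are sorted by fold change. The start used for *Piwil1* lies 33722 bases from the listed 5′ end of the gene. Among tested genes E-box matches run from the highest value (*Slc25a31*) to the lowest (*Fkbp6*), and E2F site matches from *Slc25a31* to *Tex14*.

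All 5 meiotic cohesin and axis genes had negative log2 fold changes, and 3 of them fell, where 20.8% of all genes tested fell and 8645 of 16758 had negative values. The roles were also assigned with earlier results known. *Stag3*, a cohesin subunit known for its role in meiosis, was at 62.9, 67.0 and 57.2 CPM in WT replicates 1 to 3 and at 50.3, 48.7 and 54.5 CPM in knockout replicates 1 to 3, a log2 fold change of -0.28 (standard error 0.07, edgeR adjusted p = 0.00363). *Rec8*, the meiotic kleisin subunit of cohesin, was at 7.29 ± 0.575 FPKM in WT ASCs and 5.86 ± 0.0343 FPKM in *Bdh2*-knockout ASCs (SD, n = 3, log2 fold change -0.26, standard error 0.07, edgeR adjusted p = 0.0122). In both genes every knockout replicate was below every WT replicate, by a small margin for *Rec8* in WT replicate 2. Without knockout replicate 3 *Rec8* no longer passed (edgeR, adjusted p = 0.0516).

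*Hormad2*, an axis protein that monitors chromosome pairing, fell from 4.02, 4.46 and 3.36 CPM in WT replicates to 2.72, 2.79 and 2.96 CPM in knockout replicates (log2 fold change -0.48, standard error 0.16, edgeR adjusted p = 0.0319). Its call was lost with DESeq2 (adjusted p = 0.0721), with no filter on low counts (edgeR, 0.0565), with the hepatocyte covariate (edgeR, 0.197) and when any library other than WT replicate 3 was left out (edgeR, adjusted p between 0.0631 and 0.125). Its partner *Hormad1* was not called, at 2.27 ± 0.323 CPM in WT ASCs and 1.94 ± 0.193 CPM in *Bdh2*-knockout ASCs (SD, n = 3), and 27.2% of its 50-base stretches also occur in the transcripts *Gm15529* and *Gm7167*. *Smc1b*, the meiotic SMC subunit of cohesin, was at 1.29, 1.78 and 1.39 CPM in WT replicates and at 1.31, 0.587 and 0.709 CPM in knockout replicates. Knockout replicate 1 lay within the WT range and the other 2 were below it, and the log2 fold change of -0.76 (95% confidence interval -1.45 to -0.08) did not pass (edgeR, adjusted p = 0.0690). It passed without knockout replicate 1 (-1.18, edgeR adjusted p = 0.0150), with no filter on low counts (-0.75, edgeR adjusted p = 0.0489) and with limma-voom (-0.82, adjusted p = 0.0466).

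The synaptonemal complex genes moved in both directions, with 2 of 6 higher and 1 lower, against 21% and 20.8% of all genes tested. *Syce1* and *Syce2* both encode proteins of its central element. *Syce1* was at 11.7, 12.1 and 11.2 CPM in WT replicates and at 26.1, 21.6 and 24.8 CPM in knockout replicates, which is 2.07-fold (log2 fold change 1.05, standard error 0.08, edgeR adjusted p = 1.24e-06). *Syce2* was at 66.3, 74.7 and 63.0 CPM in WT replicates and between 47.7 and 52.4 CPM in knockout replicates, a log2 fold change of -0.44 (standard error 0.07, edgeR adjusted p = 1.8e-04). For neither gene did the replicates of the genotypes overlap, and the changes went in opposite directions. *Syce3*, the third central element protein of the list, was between 0.626 and 1.17 CPM in each library. Its means were 0.957 ± 0.195 CPM in WT and 0.914 ± 0.275 CPM in *Bdh2*-knockout ASCs (log2 fold change -0.04, 95% confidence interval -0.71 to 0.63).

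*Sycp3*, of the lateral element, was at 2.63, 3.42 and 3.05 CPM in WT replicates and at 4.79, 4.07 and 3.71 CPM in knockout replicates (log2 fold change 0.47, standard error 0.17, edgeR adjusted p = 0.0367). Its call was lost with DESeq2 (adjusted p = 0.0688), with library totals (edgeR, 0.0595), with the replicate number as a block (edgeR, 0.0563), with the hepatocyte covariate (edgeR, 0.117) and without WT replicate 1 or 3 or knockout replicate 1 or 2 (edgeR, adjusted p between 0.0638 and 0.141). *Chpt1* is encoded on the other strand and its exons overlap 52.2% of the exon bases of *Sycp3*, and the library kit does not mark strand, so reads of the 2 genes cannot be told apart there. *Chpt1*, an enzyme of phosphatidylcholine synthesis, fell (log2 fold change -0.52, edgeR adjusted p = 0.00135). *Sycp2*, the partner of *Sycp3*, was at 1.70 ± 0.201 CPM in WT ASCs and 2.32 ± 0.448 CPM in *Bdh2*-knockout ASCs, with all knockout replicates above all WT replicates and no call (log2 fold change 0.45, 95% confidence interval -0.01 to 0.92, edgeR adjusted p = 0.110). *Sycp1*, the transverse filament, was at 3.52 ± 0.542 FPKM in WT ASCs and 3.03 ± 0.0986 FPKM in *Bdh2*-knockout ASCs (log2 fold change -0.15) and was called lower only without WT replicate 3 (-0.27, edgeR adjusted p = 0.0321).

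Of 3 genes of break formation and telomere attachment 2 were tested and 0 called, where 41.7% of all genes tested were called. A share of 2 genes is too small to be read. *Spo11*, the enzyme that cuts DNA in meiosis, had 3 to 6 counts in each library and did not pass the count filter. *Mei1*, which is needed for these cuts, was at 0.979, 1.34 and 0.435 CPM in WT replicates and at 1.02, 1.06 and 1.04 CPM in knockout replicates, and the even values of the knockout lay within the spread of the WT (log2 fold change 0.21, 95% confidence interval -0.54 to 0.97). *Majin*, which ties telomeres to the nuclear envelope, had a log2 fold change of 0.20 (95% confidence interval -0.50 to 0.89).

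In the PIWI and piRNA group, 3 of 7 tested genes were higher and 1 was lower, against 21% and 20.8% of all genes tested. *Piwil2*, a PIWI protein of fetal and adult germ cells, was at 19.0, 19.5 and 21.5 CPM in WT replicates and at 30.6, 29.0 and 31.7 CPM in knockout replicates (log2 fold change 0.60, standard error 0.07, edgeR adjusted p = 2.08e-05). The other PIWI genes were lower in level and not called: *Piwil1* was at 2.33 ± 0.551 CPM in WT and 2.83 ± 0.179 CPM in *Bdh2*-knockout ASCs, and *Piwil4* at 0.637 ± 0.179 and 0.535 ± 0.0822 CPM. *Mael*, a piRNA pathway protein needed for transposon silencing, rose from 9.22, 10.9 and 10.8 CPM to 16.6, 15.2 and 16.4 CPM (log2 fold change 0.63, standard error 0.09, edgeR adjusted p = 1.12e-04). For *Piwil2* and *Mael* the lowest knockout replicate was above the highest WT replicate by more than the range of either genotype.

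*Tex15*, which acts with nuclear PIWI in transposon methylation, was at 14.1, 13.0 and 11.4 CPM in WT replicates and at 17.6, 18.0 and 18.7 CPM in knockout replicates (log2 fold change 0.50, standard error 0.09, edgeR adjusted p = 4.95e-04). *Mov10l1*, the helicase that starts piRNA production, had no overlap between the genotypes (4.69, 5.65 and 5.34 against 6.06, 6.89 and 6.59 CPM) and a log2 fold change of 0.32 (95% confidence interval 0.05 to 0.58), which did not pass (edgeR, adjusted p = 0.0562). *Fkbp6*, a cochaperone of piRNA loading, went the other way, from 1.80, 2.33 and 2.22 CPM in WT replicates to 0.907, 1.06 and 1.38 CPM in knockout replicates. Its log2 fold change was -0.93 (standard error 0.24, edgeR adjusted p = 0.00706), the most negative of the 35 tested genes, on 25 to 56 counts per library. *Asz1*, a mitochondrial scaffold of the pathway, had at most 2 counts in any library.

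**Figure D4:**
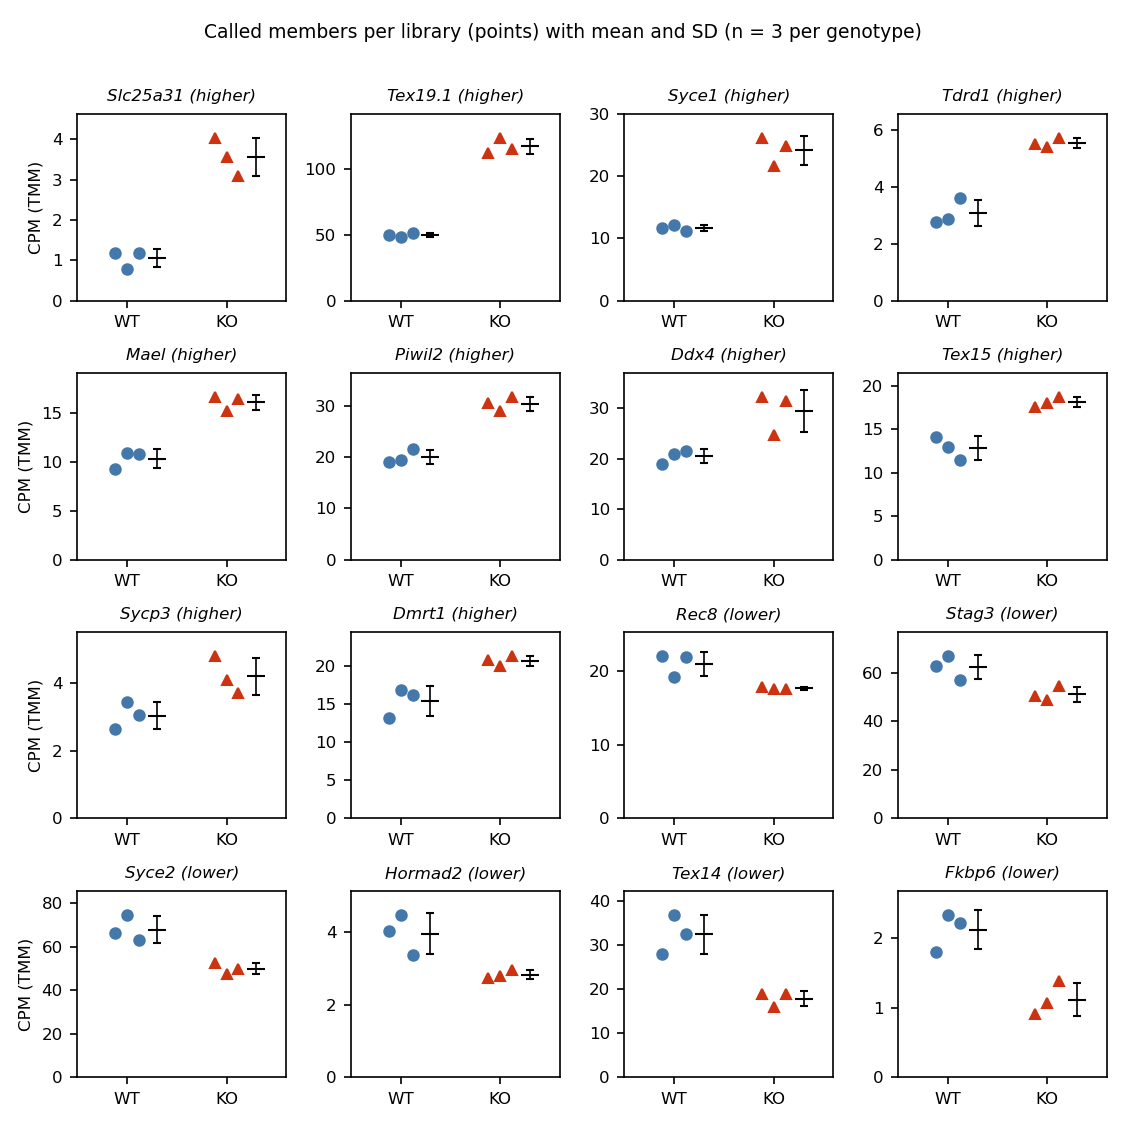
Normalized level (CPM, axes from 0) of the 16 called genes in each library (circles, WT; triangles, *Bdh2*-knockout; black bars, mean and SD, n = 3), sorted from the largest increase to the largest decrease. The genotypes do not overlap in any of the 16 panels, and the fold change is largest for *Slc25a31* and *Tex19.1* and smallest for *Rec8* and *Stag3*.

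Of the Tudor domain genes, whose proteins bind methylated arginines of PIWI proteins, 1 of 5 tested was higher and 0 lower, a share near the 21% of all genes tested that were higher. *Tdrd1* was at 2.78, 2.87 and 3.60 CPM in WT replicates and at 5.52, 5.39 and 5.72 CPM in knockout replicates, 1.78-fold (log2 fold change 0.83, standard error 0.15, edgeR adjusted p = 6.31e-04). The other 4 tested genes had log2 fold changes between -0.27 (*Tdrd9*) and 0.19 (*Stk31*, a kinase with a Tudor domain). *Tdrd5* was called lower with library totals (-0.26, edgeR adjusted p = 0.0283) and without knockout replicate 3 (-0.28, edgeR adjusted p = 0.0226), and *Stk31* higher without knockout replicate 2 (0.29, edgeR adjusted p = 0.0367). *Tdrkh* was not called at 3.15 ± 0.508 and 2.75 ± 0.490 CPM, and 36.7% of its exon bases lie under *Oaz3* on the opposite strand, which itself had 0 to 5 counts in each library. *Tdrd6* had 1 to 4 counts in each library.

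Among the RNA-binding and transcription factors of germ cells, 2 of 4 were higher and 0 lower, against 21% and 20.8% of all genes tested. *Ddx4*, the germ cell helicase also called Vasa, was at 18.9, 21 and 21.5 CPM in WT replicates and at 32.2, 24.7 and 31.5 CPM in knockout replicates (log2 fold change 0.52, standard error 0.10, edgeR adjusted p = 8.16e-04). Knockout replicate 2 was nearer to the WT range than the other 2, and the log2 fold change moved between 0.46 and 0.64 as single libraries were left out. *Dmrt1*, a transcription factor of testis development, rose from 13.2, 16.9 and 16.2 CPM in WT replicates to between 20 and 21.3 CPM in knockout replicates (log2 fold change 0.42, standard error 0.09, edgeR adjusted p = 0.00198). *Dazl*, which binds RNA and controls translation in germ cells, did not pass, with 4.89 ± 0.451 CPM in WT ASCs and 5.47 ± 0.839 CPM in *Bdh2*-knockout ASCs (log2 fold change 0.16, 95% confidence interval -0.16 to 0.48). *Brdt*, the testis bromodomain protein, did not pass either (log2 fold change 0.35, 95% confidence interval -0.12 to 0.83).

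*Tex19.1* had the smallest adjusted p of the 35 tested genes. It is a pluripotency and germ cell gene whose loss is known to derepress retrotransposons in the testis. Its level was 49.7, 48.0 and 51.2 CPM in WT replicates and 112, 123 and 115 CPM in knockout replicates, 2.35-fold (log2 fold change 1.23, standard error 0.06, edgeR adjusted p = 1.11e-08). Its neighbour *Tex19.2* lies 27465 bases away on chromosome 11 on the opposite strand and shares 2.50% of its 50-base stretches with *Tex19.1*. *Tex19.2* was at 1.13, 0.743 and 0.831 CPM in WT replicates and at 0.907, 1.43 and 1.96 CPM in knockout replicates, which overlap, and was not called (log2 fold change 0.66, 95% confidence interval -0.03 to 1.35, edgeR adjusted p = 0.114). Without knockout replicate 1 it passed (0.92, edgeR adjusted p = 0.0356).

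The most positive log2 fold change of the 35 tested genes was that of *Slc25a31*, a mitochondrial ADP/ATP carrier of male germ cells. It was counted 23, 16 and 30 times in WT replicates and 111, 97 and 74 times in knockout replicates. After normalization this is 1.18, 0.793 and 1.19 CPM against 4.03, 3.56 and 3.09 CPM, 3.35-fold (log2 fold change 1.74, standard error 0.22, edgeR adjusted p = 4.8e-05). *Tex14*, a component of the bridges between germ cells, fell from 28.0, 36.8 and 32.5 CPM to 18.8, 15.9 and 18.8 CPM (log2 fold change -0.87, standard error 0.10, edgeR adjusted p = 1.8e-05). The DNA repair gene *Rad51c* has an exon in the 150 bases before the listed start of *Tex14* and fell as well (log2 fold change -0.75, edgeR adjusted p = 1.6e-05).

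The 4 remaining genes of the testis were not called or not tested. *Tuba3a*, a testis α-tubulin, was at 6.14 ± 0.963 and 5.95 ± 1.08 CPM, and 33.6% of its 50-base stretches are shared with *Tuba3b* or the pseudogene *Gm5366*. *Tuba3b* had 0 to 4 counts in each library. *Tex101*, a surface protein of germ cells, passed the count filter mainly through the knockout libraries (6, 8 and 12 counts in WT and 18, 9 and 15 in knockout replicates), so its log2 fold change of 0.42 (95% confidence interval -0.44 to 1.28) is not read further. *Dpep3*, a testis dipeptidase, had 3 to 8 counts in each library.

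**Figure D5:**
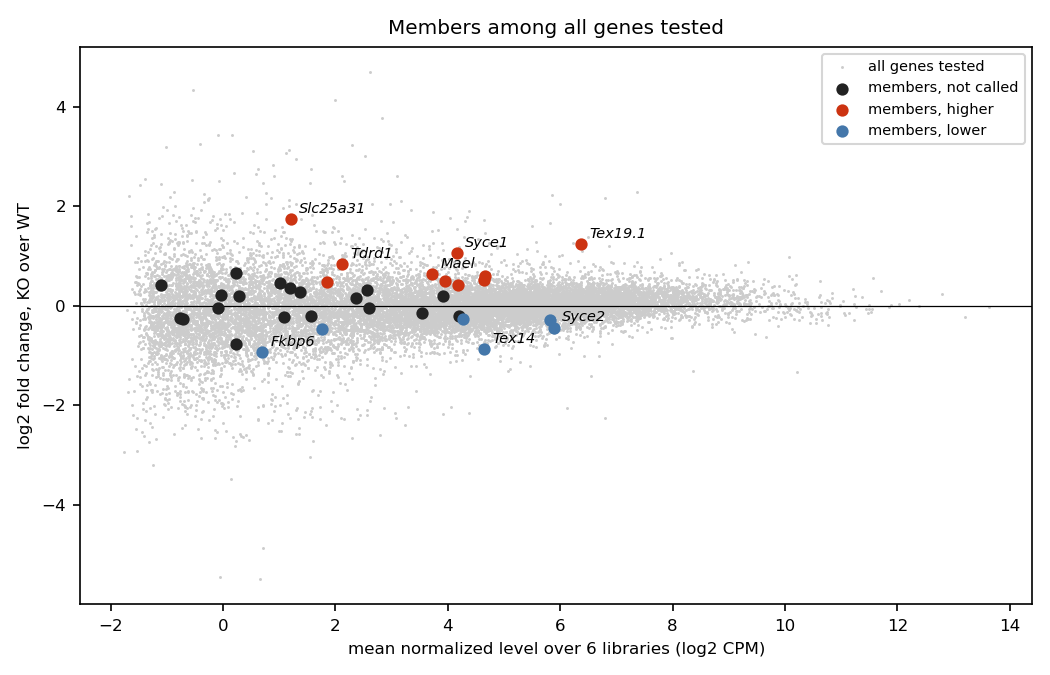
Log2 fold change of all 16758 tested genes (grey; *Bdh2*-knockout over WT ASCs) against their mean normalized level over the 6 libraries (log2 CPM), with the 35 tested germline and meiosis genes as large points (red, rose; blue, fell; black, not called). The large points lie within the cloud of all genes at every level except *Tex19.1* and *Slc25a31*, which are near its upper edge.

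The 40 genes lie on 16 chromosomes, with 0 on X or Y and at most 4 on any of them. The median coefficient of variation among replicates was 13.5% in WT and 10.5% in *Bdh2*-knockout ASCs for the 35 tested genes, and 7.91% and 6.17% for all genes tested. The 35 genes also had lower median levels, 1.36 against 3.96 FPKM in WT ASCs and 1.62 against 3.63 FPKM in *Bdh2*-knockout ASCs. The part of the level in the larger spread was not tested.

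Of other germline genes, 77 not among the 40 were in the table and 60 were tested. Of these 10 were higher and 13 lower (38.3% called, against 41.7% of all genes tested, 21% higher and 20.8% lower), and -0.06 was the median of their log2 fold changes. The largest increases among the called genes were those of *Taf7l*, a testis form of a TFIID subunit (log2 fold change 1.35), *Gm4969* (1.31), *Topaz1* (0.73), *Rpl10l* (0.70) and *D1Pas1* (0.69). The largest decreases among the called genes were those of *Xlr3a* (-2.36), *Meiob* (-1.73), *Msh4* (-1.09), *Fbxo47* (-0.98) and *Msh5* (-0.84), the last of which acts in meiotic recombination. *Meiob* (8, 16 and 18 counts in WT and 8, 1 and 6 in knockout replicates) passed the count filter only through the WT libraries. *Msh4* (11, 20 and 15 counts in WT and 11, 5 and 10 in knockout replicates) met it in all WT libraries and in 1 knockout library, so neither decrease is read further. *Xlr3a* shares 47.8% of its 50-base stretches with *Xlr3b*, *Xlr3c* and other transcripts, while *Msh4* and *Topaz1* each lost the call under 10 of the 13 alternatives that tested them and *Meiob* under 2 of 13.

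Of the 16 tested subunits of the PRC1.6 repressor, 4 were higher and 0 lower, with *L3mbtl2* at a log2 fold change of 0.32 and *E2f6* at 0.28 (edgeR, adjusted p = 0.00110 and 6.26e-04), while *Mga* (0.07) and *Pcgf6* (-0.00) were not called. Of 17 DNA and H3K9 methylation genes, 10 were higher and 0 lower. Over all genes tested, 21% were higher and 20.8% lower. *Dnmt3l*, the cofactor of de novo methylation, was at 462 ± 17.8 CPM in WT ASCs and 844 ± 17.8 CPM in *Bdh2*-knockout ASCs (log2 fold change 0.87), and *Dnmt3b* had a log2 fold change of 0.59 (edgeR, adjusted p = 3.84e-08 and 4.43e-06). *Trim28* (0.50), *Tet3* (0.46) and *Ehmt2* (0.45) were next. *Dnmt1* (0.11), *Uhrf1* (0.06) and *Dnmt3a* (0.01) were not called, though *Dnmt1* was called higher without WT replicate 3 (0.17, edgeR adjusted p = 0.00372). With library totals in place of TMM, 10 genes of both lists were higher and 4 lower.

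Markers of other cells that use these genes were counted in the same libraries. Of 10 haploid spermatid markers 0 passed the count filter, *Prm2* and *Akap4* were at 0 in every library, and the highest count of the list was 14. Of 6 oocyte markers 5 stayed under 10 counts in every library, and *Zp3* rose (log2 fold change 0.69, edgeR adjusted p = 5.85e-04). Of 7 primordial germ cell markers, *Prdm14* rose (0.46), *Tfap2c* (-0.60) and *Kit* (-0.53) fell and 4 were not called (42.9% called, against 41.7% of all genes tested). The summed level of the 7 was 147 to 151 CPM in WT libraries and 116 to 119 CPM in knockout libraries. Between the means of WT and *Bdh2*-knockout ASCs, *Kit* went from 71.5 to 49.6 CPM and *Tfap2c* from 33.8 to 22.3 CPM. *Prdm14* went from 8.02 to 11.1 CPM. Of 7 testis somatic markers 3 were tested, of which *Star* rose (0.67) and *Sox9* (-0.40) and *Insl3* (-0.94) were not called. *Insl3* was over the count filter in all WT libraries but in 1 knockout library, so its value is not read further. *Fshr* and *Hsd3b6* were at 0 in every library. Of 9 genes of the cleavage-stage embryo 4 were tested and *Zscan4d* rose (0.72). The part of primitive endoderm, cleavage-stage or germ cell RNA in the changes of the 40 genes was not tested.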

How the data were processed

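Total RNA of 3 WT ASC and 3 *Bdh2*-knockout ASC samples was made into libraries with the Illumina TruSeq RNA kit, which does not mark strand. The deposited values are raw counts per gene, which the authors obtained with FeatureCounts after trimming and alignment to GRCm38 by HISAT2 2.0.5. The annotation release, the use of strand and the treatment of reads with several matches are not given in the sources used here. Exons were taken from GENCODE M21, where 99.4% of the identifiers of the table occur and all 40 genes have the start and end that the table lists.

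The test was that of edgeR 4.0.16 in R 4.3.3, with TMM, filterByExpr, glmQLFit and glmQLFTest. Genotype was the single term of the design, and p-values of 16758 genes were adjusted by Benjamini-Hochberg and called under 0.05. The filter asks for about 10 counts in at least 3 libraries, here 0.406 CPM. FPKM was computed from the counts, listed lengths and library totals. DESeq2 1.42.0 and limma-voom (limma 3.58.1) were alternatives, together with other scalings, filters, the replicate block, a covariate for hepatocyte transcripts and leaving out each sample. The main edgeR fit and the DESeq2 and limma-voom fits were tested on simulated counts. In the libraries 3 counts correspond to 0.106 to 0.158 CPM, which covers counting error only. Replicates of a genotype differed by more than sampling noise, so each library was kept as 1 sample. Same-numbered replicates deviated from their group means with correlations of -0.15, 0.10 and 0.25, so the numbers were not taken to pair the samples.

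The 40 genes, their roles, the other gene lists and the tests were chosen with earlier results of these data known. The text gives every one of the 40 genes, the 5 largest increases and decreases among the called genes of the other germline list and of the repressor and methylation lists, *Bdh2*, chosen repressor and methylation genes, and markers of other cells. *Chpt1*, *Oaz3* and *Rad51c* were named after their values were seen, for their overlap with or nearness to a listed gene. Promoters are from RefSeq (GRCm38.p6). Methylation was not measured. Further steps used Python 3.11.15 with pandas 2.3.3, and figures used matplotlib 3.10.9.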

Additional observations from a re-analysis of the deposited data

How the results depend on the processing

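Over 14 alternatives the germline and meiosis genes gave 9 or 10 higher and 5 to 7 lower genes, and 13 of the 16 called genes were called in every alternative that tested them (9 higher and 4 lower). *Sycp3*, *Hormad2* and *Rec8* lost the call in some, and *Sycp1*, *Smc1b*, *Tex19.2*, *Tdrd5* and *Stk31* gained one in some. The median log2 fold change of the tested genes stayed between 0.12 and 0.28. The numbers of the replicates did not pair the samples, and with the replicate block 9 genes were higher and 6 lower, *Sycp3* being the call that was lost. With a count minimum of 5 in 3 libraries 37 of the 40 genes passed, and with 20 counts 32. The share called over all genes moved with the alternative as well. It was 5088 of 16758 with the hepatocyte covariate, beside 14 of the 35 germline and meiosis genes. With no filter on low counts it was 7314 of 31384 beside 16 of 40, and with a mean count of at least 50 it was 6359 of 12718 beside 15 of 25.

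Signs turned only in genes called under neither setting. *Syce3* turned to 0.34 and *Tex101* to -0.0383 with the hepatocyte covariate. As single libraries were left out, *Syce3* ranged from -0.26 to 0.17, *Tuba3a* from -0.18 to 0.0863, *Mei1* from -0.15 to 0.59, *Majin* from -0.0247 to 0.67, *Dnmt3a* from -0.0239 to 0.0613 and *Pcgf6* from -0.0127 to 0.0112. *Dnmt3a* turned to -0.0491 with library totals, -0.003 with a mean count of at least 50 and -0.0617 with the covariate. *Uhrf1* turned to -0.0012 with library totals, and *Pcgf6* to 0.0016 with DESeq2 or median-of-ratios factors and 0.0126 without a filter. The cause was not tested.

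Other germline genes called lower numbered 8 with a mean count of at least 50, where fewer genes were tested. Repressor and methylation genes called lower numbered 4 with library totals, 3 with a mean count of at least 50 and 0 to 1 with single libraries left out. Marker genes called numbered 21 with DESeq2, 20 with limma-voom, 18 with the covariate and 18 to 35 with single libraries left out, and those called lower 3, 2, 3 and 2 to 17 (14 in the report, of which 12 were hepatocyte transcripts). The median level of the 40 genes in WT ASCs was 3.73 TPM in place of 1.29 FPKM, since TPM is scaled to another total.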
